A study of Mus musculus with 4 samples.

Results

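Immediate-early and heat shock genes were followed in fibroblasts of the tumour stroma (cancer-associated fibroblasts, CAFs), sorted as single cells from 4 mouse colon tumours. The set held 32 genes taken by symbol, 26 immediate-early genes and 6 heat shock genes, out of 16305 genes counted. Each of the 32 had transcripts in the cells of tumours 2, 3 and 4, and 31 had them in tumour 1, where Egr3 had none. The series is one of SORT-seq, in which single cells are sorted into the wells of a plate, lysed by heat and read with barcoded primers, followed by CEL-Seq2 libraries that count the 3′ ends of mRNA molecules. Each of the 4 plates held CAFs of 1 orthotopic tumour of the type that the labels name APTKA, transplanted into the colon. The mice were female, of the strain C57BL6J, and none had been treated, so the labels give 1 group of 4 tumours and no control or treated arm. Whether the tumours grew in separate mice, the age of the mice, the gate of the sort and what APTKA stands for were not stated in the labels, so p-values measure only the spread between these plates. Comparisons were therefore made between kinds of cells of the same tumours.

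Immediate-early genes are transcribed within minutes of a growth factor, cytokine or stress signal, from factors already present in the cell and without new protein synthesis. Many of their products form the AP-1 transcription factor, and others end the response again, by dephosphorylating kinases or by degrading short-lived mRNAs. Heat shock genes encode chaperones, which bind unfolded proteins, and the stress-inducible ones are switched on by heat shock factor. In fibroblasts both programmes are known to follow serum, wounding, inflammatory cytokines and also the dissociation of tissue into single cells. No intact tissue was analysed here.

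The promoters of 6 members are shown first, because the results below turn on these genes: the Hspa1a and Hspa1b pair, Hspb1 and Dnajb1, which behaved differently from that pair, and Jun and Zfp36 of the immediate-early arm. The letters are those of RefSeq on the build GRCm38.p6, 5′ to 3′ on the strand of the gene, ending just before its start. Capitals mark the heat shock element core GAANNTTC, except in Zfp36, where they mark the CArG box, the site of serum response factor.
Hspa1a: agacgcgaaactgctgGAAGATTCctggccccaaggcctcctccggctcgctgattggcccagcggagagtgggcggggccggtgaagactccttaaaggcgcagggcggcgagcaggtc
Hspa1b: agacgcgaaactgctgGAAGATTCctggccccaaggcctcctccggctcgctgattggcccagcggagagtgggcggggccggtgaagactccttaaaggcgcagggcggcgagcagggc
Hspb1: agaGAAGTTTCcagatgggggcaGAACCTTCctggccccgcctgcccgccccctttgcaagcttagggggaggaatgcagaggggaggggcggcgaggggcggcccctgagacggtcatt
Dnajb1: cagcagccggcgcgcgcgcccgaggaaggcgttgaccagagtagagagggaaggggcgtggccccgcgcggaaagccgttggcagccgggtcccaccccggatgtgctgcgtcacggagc
Zfp36: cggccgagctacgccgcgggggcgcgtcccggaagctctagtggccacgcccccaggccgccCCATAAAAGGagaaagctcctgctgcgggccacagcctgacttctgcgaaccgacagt
Jun: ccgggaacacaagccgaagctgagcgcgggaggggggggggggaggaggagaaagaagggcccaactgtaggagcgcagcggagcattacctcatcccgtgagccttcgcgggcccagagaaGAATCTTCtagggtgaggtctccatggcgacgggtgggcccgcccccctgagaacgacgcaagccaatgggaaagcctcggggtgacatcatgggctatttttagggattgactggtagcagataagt
These stretches lie at chr17:34972157-34972276 (Hspa1a, minus strand), chr17:34959239-34959358 (Hspa1b, minus strand), chr5:135887799-135887918 (Hspb1, plus strand), chr8:83608055-83608174 (Dnajb1, plus strand), chr7:28379229-28379348 (Zfp36, minus strand) and chr4:95052223-95052472 (Jun, minus strand, 250 bases). Hspa1a and Hspa1b differed at 1 of the 120 bases printed, T119G, with positions counted from the 5′ end and the Hspa1a base first.

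Of the 32 members, 26 were matched in the promoter table, and 250 bases before each start were searched on both strands. No promoter was listed there for Egr1, Egr3, Myc, Ier2, Ctgf or Hsp90aa1, so these were not searched. GAANNTTC was found in 4 of the 26, Hspa1a, Hspa1b, Hspb1 with 2 matches, and Jun, and in 6.69% of all 32817 promoters of the same length. The CArG box was found in Egr2 and Zfp36 and in 1.47% of all promoters, and the cAMP response element TGACGTCA in Btg2, Dusp1 and Maff and in 1.55%. The AP-1 site TGANTCA was found in Zfp36l1 (6.75% of all promoters). TATAAA, the TATA box, was found in 6 members, Cyr61, Fos, Gadd45b, Gadd45g, Nr4a2 and Zfp36l1 (12.4%). A member counted if any of its listed starts held the match, while the share is over single promoters. Dnajb1, Egr2, Hsph1 and Maff had more than 1 start listed, and in Maff not every start held the element. A match describes these letters in this window and is not evidence that a factor binds there. Hspa1a (chr17:34969190-34972156) and Hspa1b (chr17:34956436-34959238) lie 9951 bases apart, and their coding sequences were 99.5% identical. After the stop codon, where a 3′ end read falls, they were 51.6% identical. The split of reads between the pair is still uncertain, so their sum is given beside each gene.

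The 4 plates held 612734, 3165550, 2805112 and 2727191 transcripts. Wells with 1000 or more transcripts, ERCC spike-ins left out, and no more than 30% of them from mitochondrial genes were kept. They were 43, 250, 243 and 204 of 384 wells in tumours 1 to 4, with medians of 5552, 8516, 8108 and 9474.5 transcripts. Tumour 1 stood apart: 87 of its 130 wells with enough transcripts exceeded the mitochondrial limit (5 to 14 wells in the others), and spike-ins made up 44.0% of its transcripts (5.54 to 8.59%). The sequencing run named with its deposited data also differs, so run, plate quality and tumour 1 cannot be told apart. Results that rest on tumour 1 are therefore given beside those of tumours 2 to 4 alone. All plates carry the same well barcodes by design, so shared barcodes say nothing about shared cells.

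Cells were sorted into groups by fixed markers. Of 740 kept cells, 608 had at least 5 of 10 fibroblast markers and none of the other gates (29, 214, 202 and 163 in tumours 1 to 4). In these the 10 markers, collagens, Dcn, Lum and Pdgfra among them, summed to 470 to 645 transcripts per 10000, a level that the gate itself favours. A further 38 cells were smooth muscle-like, 32 pericyte-like and 19 like interstitial cells of Cajal, the pacemaker cells of the gut wall. In 41 wells haemoglobin and other red cell transcripts passed 1000 per 10000, and 2 cells had no name. The cutoffs of these gates were set after the data had been seen, and 13 cells lay within 1.5-fold of one. Over all kept cells of a tumour, summed endothelial, immune, epithelial, glial and mesothelial markers each reached at most 0.351 per 10000, and Cd3e and Upk3b were at 0. At least 3 markers of these lists were seen in 3, 1, 3, 2 and 0 cells. Pericyte-like cells held more, with endothelial markers at 4.40, 1.72, 2.06 and 4.31 per 10000 in tumours 1 to 4.

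Immediate-early transcripts were abundant in 3 of the 4 tumours. In the kept cells the 26 genes summed to 61.6, 169.6, 226 and 211 transcripts per 10000 in tumours 1 to 4 (167 ± 74.2, SD, n = 4). The 6 heat shock genes summed to 8.63, 17.5, 11.1 and 19.8 per 10000 (14.3 ± 5.26, SD, n = 4). Tumour 1 was lowest in both arms, and tumour 3, the highest in the immediate-early arm, was the lowest of the other 3 in the heat shock arm. Fibroblasts alone gave 55.8, 173, 238 and 217 per 10000 for the immediate-early arm and 7.08, 16.4, 10.96 and 20.2 for the heat shock arm. All levels below are transcripts per 10000 of a cell group's pooled transcripts. Read counts from 3′ ends are not divided by length, and levels are compared between tumours or cell groups, not between genes.

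Fos, the partner of Jun in the classical AP-1 dimer, stood at 4.13, 16.9, 32.7 and 25.7 per 10000 in the fibroblasts of tumours 1 to 4. Jun stood at 3.39, 12.7, 21.5 and 15.1. Atf3, a stress-induced member of the same leucine zipper family, stood at 0.0769, 3.11, 5.88 and 5.03. In all 3 genes tumour 1 lay below every other tumour and tumour 3 was highest. Jund, the AP-1 subunit that is present in resting cells, varied less between plates, at 5.65, 9.84, 11.5 and 11.6. Fosb, Junb and Maff, the other AP-1 members, were also lowest in tumour 1.

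Egr1, a zinc finger factor driven by serum response factor, stood at 3.24, 10.4, 18.8 and 17.0 per 10000. Klf4, a zinc finger factor of quiescent and differentiated cells, stood at 2.96, 7.27, 11.97 and 11.3, and the orphan nuclear receptor Nr4a1 at 0.577, 8.403, 9.76 and 9.14. Tumours 3 and 4 were close to each other in these 3 genes and tumour 1 was lowest. Myc, the growth-promoting factor, was low, at 0.0384, 0.684, 0.349 and 0.430. Egr3 had 0, 3, 1 and 2 transcripts in the 4 tumours, and a count of 0 in tumour 1 allows up to 0.115 per 10000 (3 transcripts, counting error only).

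Among the genes that end the response, Zfp36, which encodes the mRNA-destabilising protein tristetraprolin, stood at 2.85, 14.2, 15.8 and 15.5 per 10000. Dusp1, a phosphatase of MAP kinases, stood at 3.43, 9.78, 13.97 and 13.7. Zfp36l1, a relative of Zfp36, stood at 10.1, 8.51, 11.9 and 12.1, so tumour 1 lay within the range of the others. Ier3, an early response gene linked to cell survival, ran in another order, at 1.31, 9.46, 6.27 and 8.78, with tumour 3 the lowest of the last 3. The matricellular proteins Cyr61 and Ctgf are secreted and act on cell adhesion. Cyr61 stood at 2.51, 10.1, 10.5 and 8.24, and Ctgf at 4.25, 4.94, 1.30 and 2.37, so Ctgf was not low in tumour 1.

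Hspa1a and Hspa1b encode the stress-inducible chaperone of the Hsp70 family. Their sum stood at 2.23, 7.69, 4.85 and 9.25 per 10000 in fibroblasts (Hspa1a 0.846, 3.44, 2.24 and 3.75, Hspa1b 1.38, 4.25, 2.61 and 5.50). Dnajb1, the co-chaperone that delivers clients to Hsp70, stood at 0.346, 1.49, 1.13 and 2.12. Hspb1, a small heat shock protein that binds actin filaments and is abundant in muscle, stood at 0.846, 2.21, 0.982 and 2.75. Hsp90aa1, the inducible cytosolic Hsp90, varied less, at 3.42, 4.40, 3.65 and 5.41. Hsph1, a nucleotide exchange factor of Hsp70, stood at 0.231, 0.587, 0.353 and 0.609. All 6 genes were lower in tumour 3 than in tumours 2 and 4, and in all 6 tumour 1 was lowest. Of 2946 genes with a mean of at least 0.5 per 10000 in fibroblasts, 14.7% were lowest of tumours 2 to 4 in tumour 3.

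**Figure D1:**
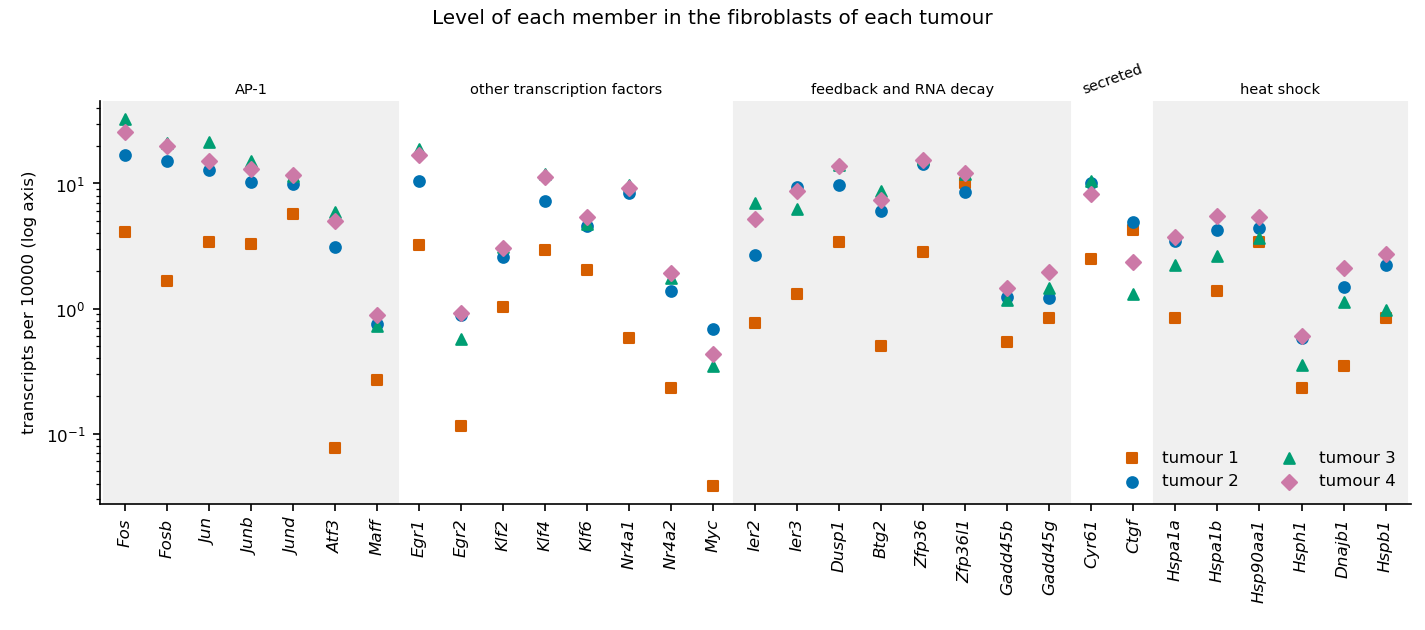
Level of each member in the fibroblasts of the 4 tumours, in transcripts per 10000 (log axis), with 1 point per tumour and the members grouped by role. Egr3 is left out because of its few transcripts. Tumour 1 lies below the others for most members, for example Fos at 4.13 against 16.9 to 32.7.

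Of the 31 members with transcripts in the fibroblasts of tumour 1, 29 were lower there than in each of tumours 2 to 4, the exceptions being Zfp36l1 and Ctgf. Egr3 cannot be placed, since the limit of its count of 0 lies above its levels in the other tumours. The background was 28.5% of the 2946 genes at 0.5 or more per 10000, and 27 of the 29 members at that level were among them. Fibroblasts of tumour 1 also had a median of 17.3% mitochondrial transcripts (5.13 to 6.13% in the others), and ribosomal Rn45s made up 3.95% of the tumour 1 cells' transcripts against 10.2 to 23.3%. With at most 15% mitochondrial transcripts per cell the immediate-early arm of the kept cells was 65.4, 169.9, 226 and 215 per 10000. With mitochondrial genes and Rn45s left out of the total it was 73.7, 237, 271 and 252. Tumour 1 stayed lowest in both settings, and no test was run on 1 plate against 3.

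Cells of a tumour differed widely in both arms. In fibroblasts of tumours 2, 3 and 4 the median cell had 183, 242 and 198 immediate-early transcripts per 10000, while the tenth of cells with the lowest values lay at or below 61.7, 64.9 and 51.5 and the tenth with the highest at or above 389, 455 and 462. The highest cells had 546, 624 and 685. The fibroblasts of tumour 1 had a median of 37.0 and a highest value of 141, below the median of each other tumour. No fibroblast was without an immediate-early transcript in any tumour.

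The Hsp70 pair was concentrated in fewer cells. Its median was 4.55, 1.81 and 3.06 per 10000 in tumours 2, 3 and 4, while the highest cells reached 125.5, 54.6 and 88.5. No transcript of the pair was seen in 31 of 214, 56 of 202 and 22 of 163 fibroblasts, which at these depths does not show that they lacked it. The tenth of fibroblasts with the highest values held 44.8, 50.7 and 51.4% of the summed per-cell values of the pair. The same share for the immediate-early arm was 21.5, 19.6 and 23.6%, so the Hsp70 pair was less evenly spread in each of the 3 tumours, as measured without adjusting for its lower counts.

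The 2 arms were only weakly correlated from cell to cell. Across kept cells the Spearman correlation between the summed arms was 0.364, 0.216, 0.339 and 0.320 in tumours 1 to 4 (n = 43, 250, 243 and 204 cells). Cells of 1 plate share their library and their depth, and both arms share the cell's total, so this is a description without a p-value. Wells rich in red cell transcripts were low in both arms, with 3.59 to 43.6 immediate-early and 0.601 to 6.34 heat shock transcripts per 10000. Red cell markers made up 6001 to 8070 of every 10000 transcripts there, which lowers the share of every other gene. Whether the arms are low in the remaining transcripts of these wells was not tested. Within fibroblasts the correlations were 0.160, 0.248, 0.263 and 0.132 (n = 29, 214, 202 and 163), a mean of 0.201 against 0.310 over all kept cells. With each fibroblast thinned to 2000 transcripts the mean was 0.135. A correlation of this size in sparse counts is no finding on its own.

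**Figure D2:**
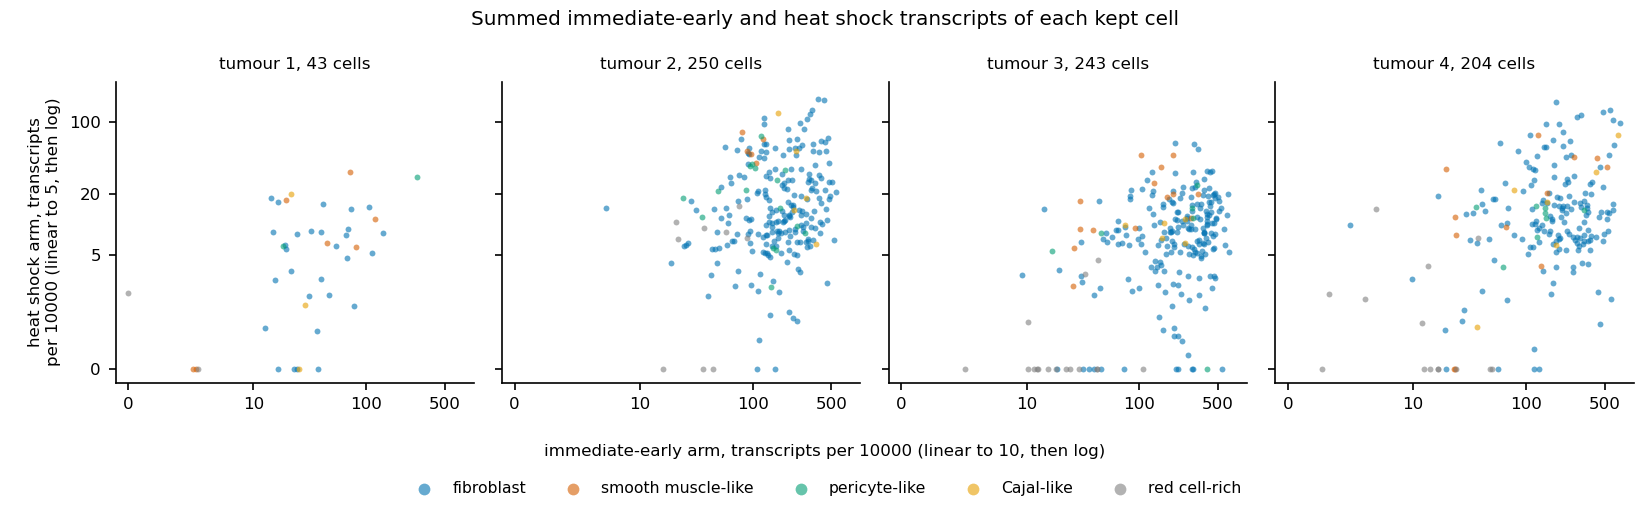
Heat shock arm against immediate-early arm of each kept cell, in transcripts per 10000, with 1 panel per tumour and both axes linear near 0 and logarithmic beyond. Red-cell-rich wells lie toward the lower left, and fibroblasts with the same immediate-early level spread over a wide range of heat shock levels.

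Inside the immediate-early arm many members were correlated with each other. Fos and Egr1 correlated at 0.643, 0.646, 0.762 and 0.783 across the fibroblasts of tumours 1 to 4. The mean over all pairs of immediate-early members was 0.234, 0.214, 0.229 and 0.265, against 0.162, 0.0618, 0.0728 and 0.0725 for pairs of 1 immediate-early and 1 heat shock member. Thinning each cell to 2000 transcripts lowered the first mean to 0.0773, 0.139, 0.153 and 0.157. Hspa1a and Hspa1b correlated at 0.142, 0.674, 0.362 and 0.603, and the mean over heat shock pairs was 0.127, 0.219, 0.0713 and 0.200. With cells thinned to 2000 transcripts the Hspa1a and Hspa1b correlation was −0.162, 0.614, 0.150 and 0.569. It stayed high in tumours 2 and 4 and fell in tumours 1 and 3. Tumour 1 had 28 such cells, and the pair was scarcer in tumour 3 than in tumours 2 and 4. The low thinned values therefore do not show that the 2 genes were unrelated there.

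Against the summed rest of the immediate-early arm, Egr1 (mean of tumours 2 to 4, 0.83), Fosb (0.78), Fos (0.76), Zfp36 (0.74), Junb (0.73) and Jun (0.68) were highest. Over all other genes compared in tumours 2, 3 and 4 (3839, 4580 and 5071 genes) the 95% point was 0.185, 0.193 and 0.234. Ier3 (0.12), Gadd45g (0.083), Nr4a2 (0.055) and Ctgf (−0.05) lay below that point in each tumour, although they count as immediate-early genes. The rarely seen Egr3 (0.0007) did too. The means of Maff (0.13), Egr2 (0.16) and Myc (0.18) were also below it. Maff exceeded it in tumour 2, Egr2 in tumour 4 and Myc in tumours 2 and 3. The other genes compared were seen in at least 25% of a tumour's fibroblasts, a limit not set for the members. Ier3 was not sparse, with 2724, 1548 and 2107 transcripts in the fibroblasts of tumours 2, 3 and 4. Btg2, an antiproliferative gene with 1749, 2159 and 1773 transcripts there, reached 0.67. Of the heat shock members, Hspa1a (0.25) and Dnajb1 (0.23) were highest, and Hspb1 was at −0.14.

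Jun was the immediate-early member closest to the Hsp70 pair, with a mean correlation of 0.40 over tumours 2 to 4, ahead of Cyr61 (0.29), Egr1 (0.28) and Dusp1 (0.26). In tumours 2, 3 and 4 Jun reached 0.467, 0.308 and 0.417 with the pair. Over the genes outside the set compared there, the 95% point was 0.138, 0.244 and 0.195. The highest of those genes reached 0.465, 0.472 and 0.516. Jun and Hspa1a alone gave 0.526, 0.469, 0.296 and 0.436 in tumours 1 to 4, and 0.0697, 0.325, 0.338 and 0.369 with cells thinned to 2000 transcripts. With Hspa1a and Hspa1b in place of the 6 heat shock genes, the correlation with the immediate-early arm in fibroblasts was 0.256, 0.254, 0.246 and 0.282, nearly equal in the 4 tumours. Of the immediate-early members with a promoter in the table, Jun was the one that held GAANNTTC, as printed above. Dnajb1, which had no such core there, correlated with the pair at 0.26, and Hspb1, which had 2, at −0.004. Whether the core bears on these correlations was not tested.

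**Figure D3:**
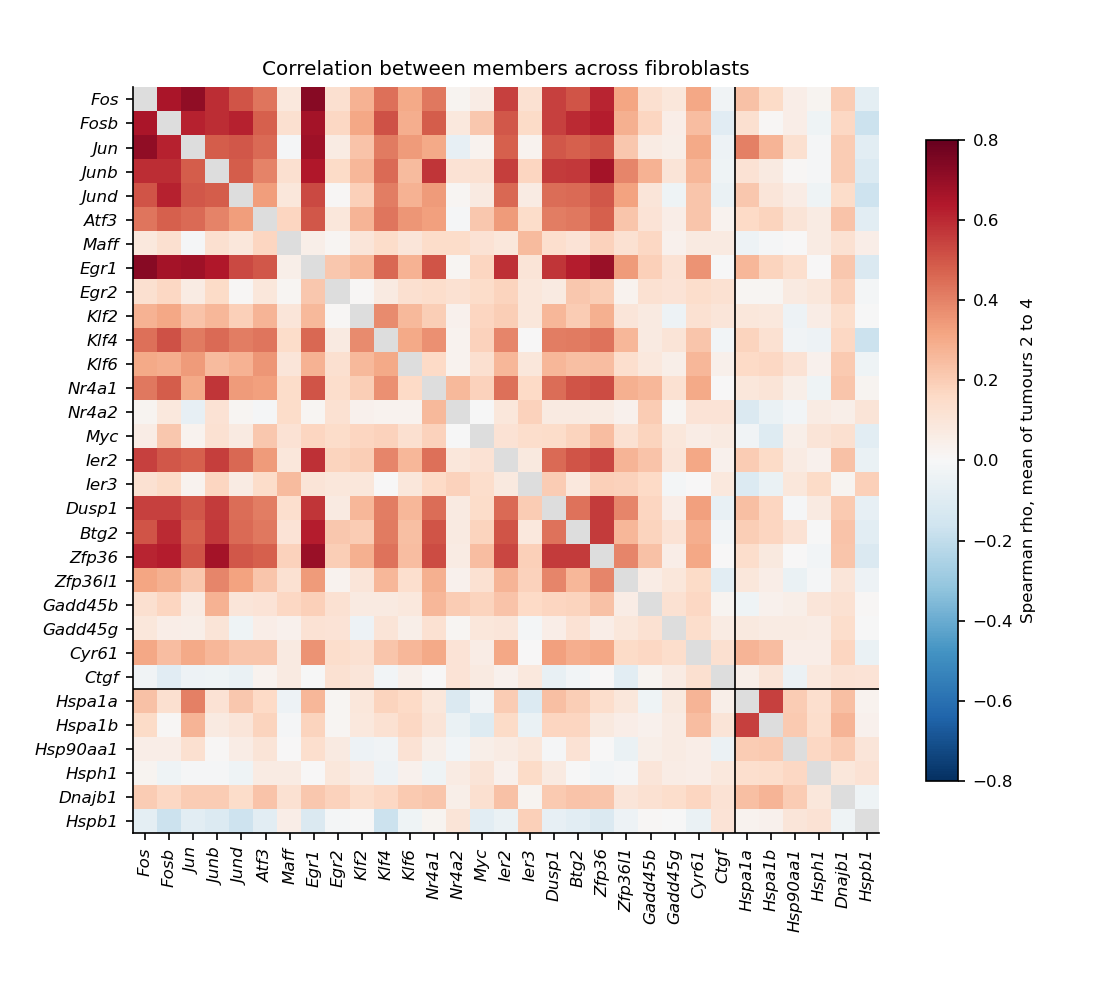
Spearman correlation between members across fibroblasts, as the mean of tumours 2 to 4, with black lines between the arms. The block of AP-1, Egr1 and feedback genes is the darkest, and the square of Hspa1a and Hspa1b stands out among the heat shock genes.

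Outside the set, by the likeness rule given with the processing, the genes that followed the immediate-early arm most closely across kept cells of tumours 2, 3 and 4 (3428 genes compared) included Mcl1 (0.537, 0.524 and 0.616), the survival factor of the Bcl-2 family, Ifrd1 (0.554, 0.506 and 0.464), Ccnl1 (0.463, 0.515 and 0.602) and Gsn (0.462, 0.487 and 0.566). For the heat shock arm they included the constitutive chaperone Hspa8 (0.325, 0.377 and 0.434), Atp2a2, Lgals3bp and Txnip. In fibroblasts alone the values were lower, for example 0.492, 0.487 and 0.543 for Mcl1 and 0.303, 0.2845 and 0.370 for Hspa8. Mcl1 and Hspa8 also belong to further lists followed below.

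The title of the series concerns inflammatory fibroblasts, so the members were compared between inflammatory and contractile CAFs of the same tumours. Fibroblasts were ranked within each tumour by a score of 12 inflammatory markers (cytokines such as Il6 and Cxcl12 among them) minus a score of 12 contractile and matrix markers (Acta2 and Postn among them). The third with the highest score is called inflammatory-high below and the third with the lowest contractile-high. Tumours 2, 3 and 4 gave 192 cells of each kind, with sums of 791474 to 1059627 transcripts, while tumour 1 had only 9 of each and was not tested. The immediate-early arm stood at 222, 287 and 241 per 10000 in inflammatory-high cells of tumours 2, 3 and 4, and at 120.45, 183 and 148 in contractile-high cells. The heat shock arm stood at 13.8, 10.5 and 21.1 against 17.5, 11.5 and 16.6, so those groups overlapped.

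By edgeR's quasi-likelihood test with the tumour as a block and Benjamini-Hochberg adjustment over 8088 genes, 19 of the 31 members tested were higher in inflammatory-high cells. Egr3 had too few transcripts to be tested here or in the comparisons below. The background was 7.37% of all genes tested. One member, Ctgf, was lower (5.80% of all genes), and 11 were not called. The median log2 fold change was 0.73 over the members and near 0 over all genes. It was 0.92 over the 25 immediate-early members, of which 18 were higher, and −0.08 over the 6 heat shock members, of which 1 was higher. In 16 of the 19 (84.2%) the values of the 3 tumours did not overlap between the 2 kinds of cells, against 78.7% of all 596 genes called higher and 8.14% of all genes tested. The exceptions were Fos, Jun and Ier2.

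All 7 AP-1 members were higher. Atf3 stood at 4.78, 8.82 and 7.93 per 10000 in inflammatory-high cells of tumours 2, 3 and 4, against 1.38, 3.47 and 1.62 in contractile-high cells. Each tumour's inflammatory-high value exceeded all 3 contractile-high values, with a log2 fold change of 1.95 (SE 0.20, edgeR adjusted p = 3.3e-05). Fos, at 22.2, 36.3 and 24.2 against 10.3, 27.0 and 20.8, was higher within each tumour but overlapped between them (log2 0.73, SE 0.17, edgeR adjusted p = 0.011). Jun had the smallest difference of the 7 (log2 0.61). Without tumour 2, Fos, Fosb, Jun, Jund and Maff were not called. Across fibroblasts of tumours 2, 3 and 4, the immediate-early arm correlated with the inflammatory score at 0.227, 0.244 and 0.244. With the contractile score it correlated at −0.319, −0.286 and −0.301. Means over these tumours with the 2 scores were 0.08 and −0.21 for Fos, 0.06 and −0.23 for Jun, and 0.31 and −0.27 for Atf3. Which of the 2 scores the calls follow was not tested.

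Of the other transcription factors 6 of 8 tested were higher. Klf4 stood at 11.7, 16.1 and 12.7 per 10000 against 2.75, 6.74 and 5.33 (log2 1.67, SE 0.18, edgeR adjusted p = 5.91e-05). Egr1 stood at 13.3, 23.4 and 19.7 against 7.13, 12.7 and 10.8 (log2 1.03). Myc, with low levels of 1.28, 0.592 and 0.517 against 0.252, 0.111 and 0.354, differed by 1.86 on the log2 scale (SE 0.32, edgeR adjusted p = 0.00146) and lost its call without tumour 2 (adjusted p = 0.0643). In these 3 genes the 2 kinds of cells did not overlap. Klf2, Klf6 and Nr4a1 were also higher, by 0.97, 0.64 and 0.92, but Klf2 and Klf6 not without tumour 2, and Klf6 not without tumour 4 or by DESeq2 either. Egr2 (−0.01) and Nr4a2 (0.08) were not called.

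Of the genes that end the response, Zfp36, Zfp36l1 and Dusp1 were among the largest differences. Zfp36 stood at 22.3, 21.9 and 21.4 per 10000 against 7.15, 10.4 and 6.44 (log2 1.63, SE 0.17, edgeR adjusted p = 3.76e-05), with no overlap. Dusp1 stood at 14.5, 17.7 and 16.5 against 5.53, 9.93 and 8.28 (log2 1.22), and Zfp36l1 was higher by 1.28. Btg2 and Ier2 were higher by 0.9982 and 0.98. Ier3 stood at 11.1, 5.15 and 9.47 against 9.56, 7.78 and 10.8, with no common direction (log2 −0.04, edgeR adjusted p = 0.926). Gadd45b (0.39) and Gadd45g (0.27), growth arrest genes, were not called either.

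The secreted pair did not follow the transcription factors. Ctgf, which is also a target of mechanical signalling, stood at 2.69, 0.713 and 1.29 per 10000 against 6.86, 0.949 and 4.11. It was lower in inflammatory-high cells of each tumour, though the values of the 3 tumours overlapped (log2 −1.06, SE 0.21, edgeR adjusted p = 0.00478), and without tumour 2 it was not called. Cyr61 had a log2 difference of 0.47 and was not called (edgeR adjusted p = 0.077).

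In the heat shock arm Dnajb1 alone was higher, at 1.83, 1.53 and 3.55 per 10000 against 1.11, 0.591 and 0.695 (log2 1.61, SE 0.27, edgeR adjusted p = 0.00131). Hspa1a (−0.19), Hspa1b (0.19) and Hsp90aa1 (0.03) were near 0. Hsph1 was lower in inflammatory-high cells without overlap between the tumours, by −0.62, but did not pass the test (edgeR adjusted p = 0.0634). Hspb1 was at −0.35.

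**Figure D4:**
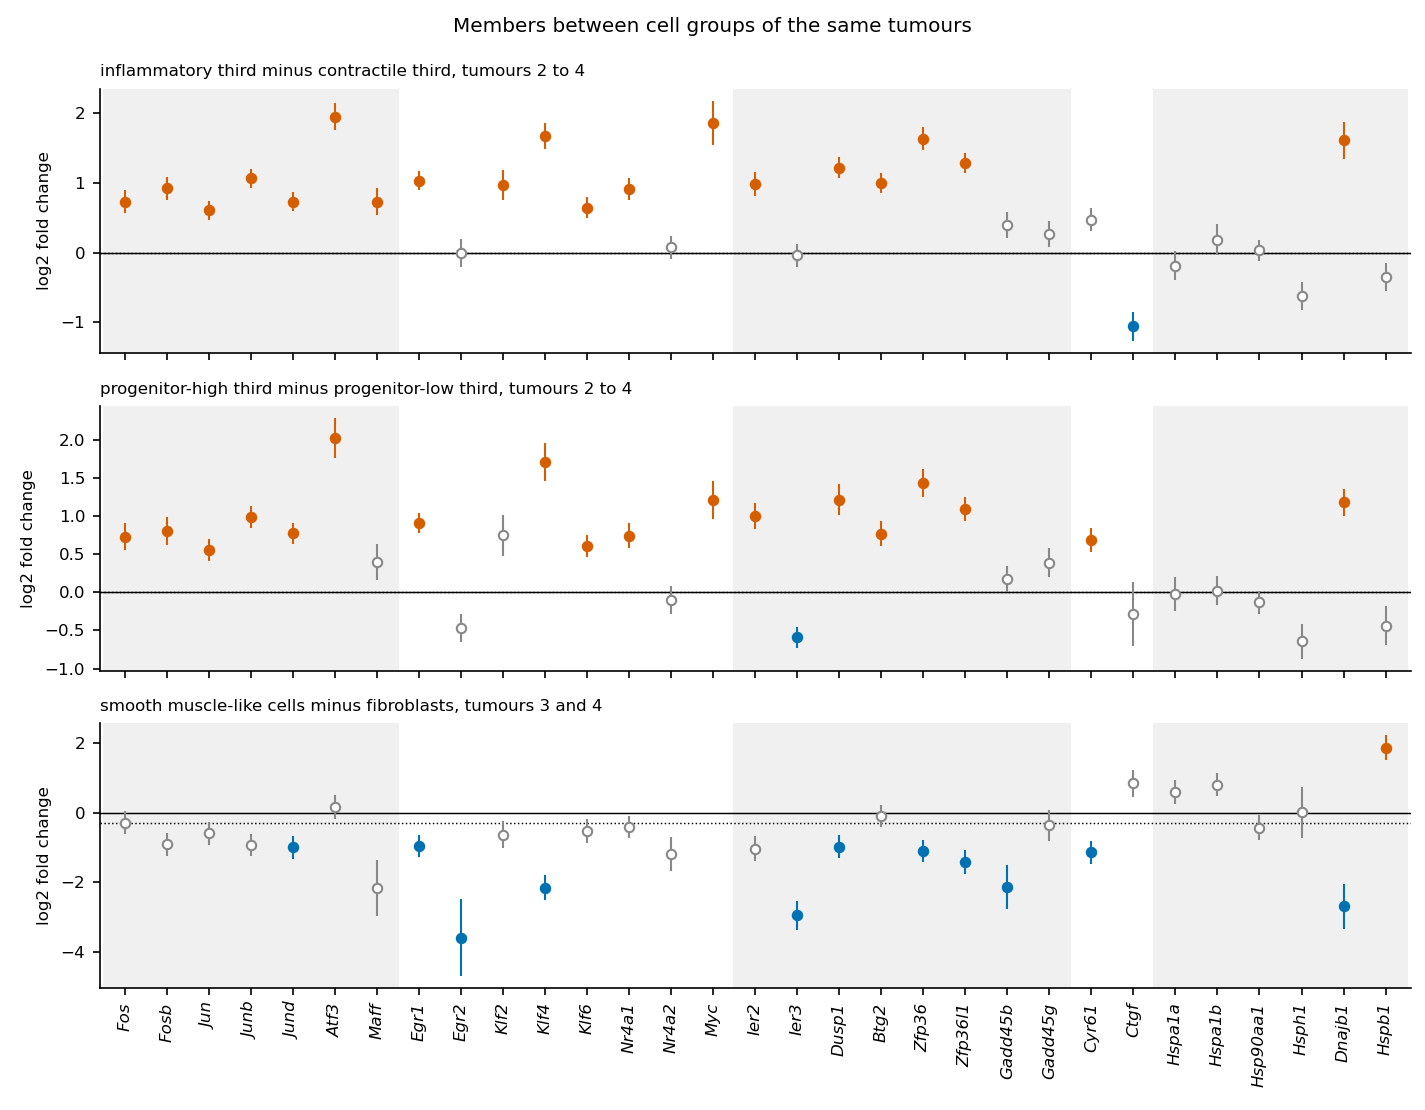
Log2 fold change of each member in the 3 comparisons of cell groups, with bars for the standard error. Orange marks members called higher, blue those called lower and open grey those not called, and the dotted line is the median of all genes tested. Egr3 is left out, and Myc too in the smooth muscle panel, where it had no transcripts. Atf3, Klf4 and Zfp36 lie high in both fibroblast panels, while Hspa1a and Hspa1b lie near 0.

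Depth moved with the 2 kinds of cells: inflammatory-high cells had medians of 10924, 12021 and 16026 transcripts in tumours 2, 3 and 4, against 8461, 9539 and 10988, and 4.75 to 5.28% mitochondrial transcripts against 5.45 to 6.46%. Cells with at least 3 of 13 cell cycle markers numbered 3, 0 and 1 against 6, 1 and 6. The part of these in the result was not tested. With at most 10% mitochondrial transcripts, or with the fast-induced cytokines left out of the inflammatory score, again 19 members were higher. The count was 11 without tumour 2, and 9 when fibroblasts were split at the middle of the score: Atf3, Fos, Jund, Klf4, Nr4a1, Myc, Zfp36, Zfp36l1 and Dnajb1. Egr1 was then at 0.33 (edgeR adjusted p = 0.696) and Dusp1 at 0.60 (adjusted p = 0.326). In tumour 1, with 9 cells each, the immediate-early arm was lower in inflammatory-high cells, at 45.6 against 59.0 per 10000.

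Further lists were followed in the same fit. Of 29 other immediate-early genes 25 were tested, 10 were higher and 2 lower, with a median of 0.50. Errfi1, an inhibitor of the EGF receptor (log2 1.72), the NF-kappaB inhibitor Nfkbia (1.18) and Csrnp1 (1.21) were higher, while Dusp6, the phosphatase of ERK, was lower by −2.54. Of 19 other chaperone genes tested 3 were higher and none was lower, with a median of −0.15: Hspb8 (1.28) and Bag3 (0.75), which work together in clearing unfolded proteins, and Dnajb4 (0.67). Of 13 genes of the endoplasmic reticulum stress response edgeR called 0 in either direction, and 1 had an unadjusted p under 0.05.

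Progenitor-like fibroblasts, which carry Pi16, Dpp4 and Cd34 and sit around vessels, were compared in the same way, as the third of fibroblasts with the highest against the third with the lowest score of 10 such markers. Of the inflammatory-high cells of all 4 tumours 121 of 201 (60.2%) were also progenitor-high, so this comparison shares cells with the first and is no independent support. Of 31 members tested 18 were higher (7.65% of all 8165 genes tested) and 1 was lower (6.18%). The largest differences were again in Atf3 (2.02), Klf4 (1.71) and Zfp36 (1.44), and Dnajb1 (1.18) was the one heat shock gene called.

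Ier3 and Cyr61 were called here and not in the first comparison. Ier3 stood at 7.64, 5.06 and 7.45 per 10000 in progenitor-high cells of tumours 2, 3 and 4, against 11.8, 8.98 and 10.9 in progenitor-low cells. It was lower without overlap (log2 −0.59, SE 0.14, edgeR adjusted p = 0.0169), though without tumour 4, and by DESeq2, it was not called. Cyr61 was higher (log2 0.68, edgeR adjusted p = 0.015), but not without tumour 4 or without the block, and with a split at the middle of the score its log2 difference was 0.12 (edgeR adjusted p = 0.879). Whether either gene's difference itself differs between the 2 comparisons was not tested. The immediate-early arm stood at 217, 256 and 243 against 118, 188 and 136 per 10000, and the progenitor-high cells again had more transcripts, with medians of 12328, 11777 and 15551 against 8461, 7536 and 8846. Without tumour 4, 8 members were higher, and with a split at the middle 7, Atf3, Klf4, Zfp36, Zfp36l1 and Dnajb1 in both.

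Among the further lists 6 of 24 other immediate-early genes were higher and 2 lower, with Errfi1 (1.61) and Cebpd (1.31) higher and Dusp6 (−1.94) lower. Arc fell by 3.25 on the log2 scale, on 9 against 75 transcripts. Hspb8 (1.44), Bag3 (0.70) and Dnajb4 (0.71) were the 3 of 19 other chaperone genes called, all higher. Of 13 endoplasmic reticulum stress genes edgeR called 0, with 1 at an unadjusted p under 0.05.

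Smooth muscle-like cells, set by markers such as Myh11 and Des, were compared with fibroblasts in tumours 3 and 4, the plates with at least 10 of them (14 and 12 cells, 97385 and 44234 transcripts). Of 31 members tested 11 were lower (4.27% of all 9351 genes tested) and 1 was higher (2.49%), against 6.76% called in either direction. The median over all genes was −0.30, and over the members −0.92, so differences are read against that shift. Of the immediate-early arm 10 of 25 were lower and 0 higher, and 17 had an unadjusted p under 0.05. The summed immediate-early level was 140 and 211 per 10000 in the smooth muscle-like cells against 238 and 217 in fibroblasts. The summed heat shock level was 21.1 and 35.5 against 10.96 and 20.2. In tumours 1 and 2, with 7 and 5 such cells and no test, the immediate-early level was 68.98 and 98.5 against 55.8 and 173. Tumour 1, whose smooth muscle-like cells held 80930 transcripts, thus went the other way.

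Hspb1 was the member called higher, at 6.79 and 8.60 per 10000 in smooth muscle-like cells of tumours 3 and 4 against 0.982 and 2.75 in fibroblasts (log2 1.88, SE 0.35, edgeR adjusted p = 5.46e-06). Its relative Cryab was higher too (2.17), the 1 of 20 other chaperone genes called in that direction. Dnajb1 went the other way, at 0.308 and 0.226 against 1.13 and 2.12 (log2 −2.70, SE 0.65, edgeR adjusted p = 0.00109). That rests on 4 transcripts, a ratio of 5.73 with an interval of 2.23 to 21.1 for counting error, and DESeq2 did not call it (adjusted p = 0.115). The Hsp70 genes Hspa1a (0.59) and Hspa1b (0.81) were not called.

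Ier3 was low in smooth muscle-like cells, at 1.64 and 0.452 per 10000 against 6.27 and 8.78 (log2 −2.95, SE 0.42, edgeR adjusted p = 1.9e-10). Klf4 stood at 2.16 and 5.20 against 11.97 and 11.3 (log2 −2.15, SE 0.36, edgeR adjusted p = 1.51e-07). Neither overlapped. Zfp36l1 (−1.42), Zfp36 (−1.10), Cyr61 (−1.14), Gadd45b (−2.14), Jund (−0.99), Dusp1 (−0.98) and Egr1 (−0.96) were lower as well, Gadd45b on 5 transcripts. DESeq2 called none of these 7 (Zfp36l1 came closest, adjusted p = 0.0655), and with its size factors in edgeR the last 3 were not called. Egr2 had 1 transcript against 363, a ratio of 10.6 with an interval of 1.88 to 418.5 for counting error. Myc had none, which puts it at least 1.83-fold lower than in fibroblasts, from a floor of 3 transcripts over the group. Fos (−0.28), Jun (−0.59) and Atf3 (0.17) were not called. The 7 smooth muscle-like cells of tumour 1, which were not tested, differed in part. Ier3 (1.48 against 1.31), Dusp1 (5.08 against 3.43) and Zfp36 (5.08 against 2.85) were higher there than in fibroblasts. Klf4 (1.98 against 2.96), Zfp36l1 (4.204 against 10.1) and Cyr61 (0.371 against 2.51) were lower. In the 5 such cells of tumour 2 Ier3 had no transcript, and Klf4 stood at 1.503 against 7.27.

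The smooth muscle-like cells were shallower, with medians of 5549 and 3397 transcripts against 9225 and 11093, and had 10.04 and 9.82% mitochondrial transcripts against 6.13 and 6.08%, whose part was not tested. With 2 plates the fit had 1 residual degree of freedom, and DESeq2 called 2 members lower, Ier3 and Klf4, and 1 higher, Hspb1. Of 25 other immediate-early genes 8 were lower and 0 higher, Nfkbia (−3.22), Phlda1 (−2.44), Sgk1 (−3.69, 3 transcripts) and Bhlhe40 (−3.12) among them. Of 13 endoplasmic reticulum stress genes 3 were lower: Hspa5 (−1.79), Calr (−1.59) and Manf (−1.64).

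Pericyte-like cells reached 10 cells in tumour 2 alone, so no test was made. There, in 16 cells, the immediate-early arm was 121 per 10000 against 173 in fibroblasts and the heat shock arm 28.4 against 16.4. In tumours 3 and 4, with 6 and 8 cells, the immediate-early arm was 141 and 137 and the heat shock arm 10.8 and 12.7. Klf4 stood at 1.77, 1.60 and 3.94 in pericyte-like cells of tumours 2, 3 and 4, below the 7.27, 11.97 and 11.3 of fibroblasts, while Fos, at 13.5, 28.5 and 22.2, was nearer to the 16.9, 32.7 and 25.7 there. The 2 pericyte-like cells of tumour 1 went the other way, with Klf4 at 12.5 against 2.96 and an immediate-early arm of 252 against 55.8. Cajal-like cells, 3 to 6 per tumour, had 24.9, 233, 166 and 239.9 immediate-early transcripts per 10000 in tumours 1 to 4.

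**Figure D5:**
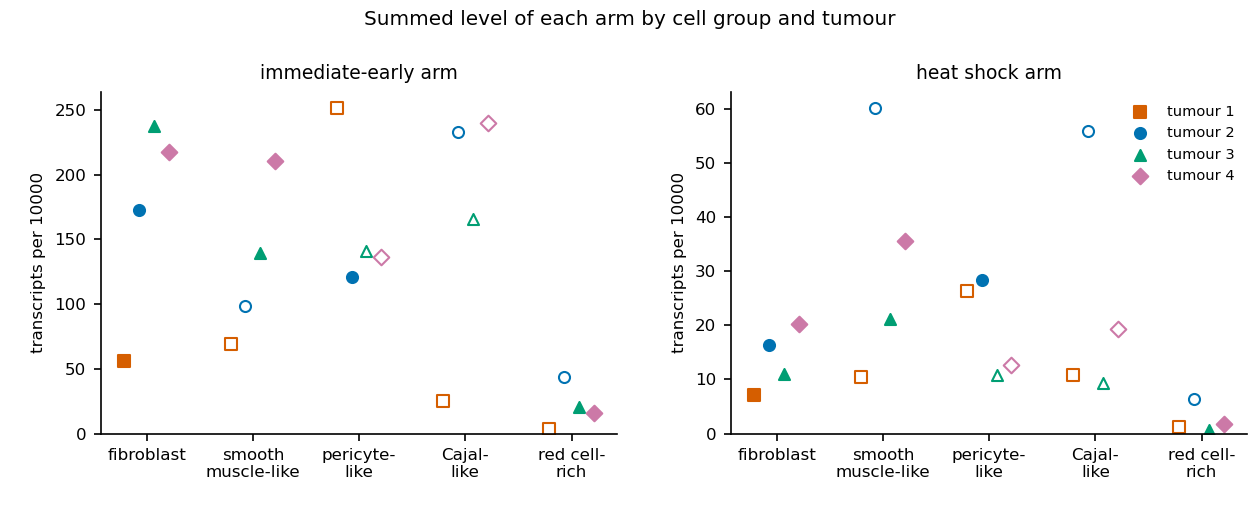
Immediate-early arm (left) and heat shock arm (right) in each cell group, in transcripts per 10000 of the pooled cells, with 1 symbol per tumour and open symbols for fewer than 10 cells. Red-cell-rich wells are lowest in both arms as shares of all transcripts, most of which are red cell transcripts there. The 2 tested plates put smooth muscle-like cells at 140 and 211 in the immediate-early arm.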

How the data were processed

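Per the labels' protocols, sorted cells were heat-lysed and processed by SORT-seq and CEL-Seq2. The submitters' processing notes name BWA and the build mm10, with no version or role; the counting step and strand setting were not stated. The values the authors deposited are expected counts per gene and well: each lies within 0.005 of the saturation correction of a whole UMI number out of 4096 possible. No column was left unmapped (0). ERCC rows were left out of totals. No doublet caller was run, since wells are sorted to hold 1 cell.

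Genes and lists were chosen with earlier results of these data known, and the gates after the cells had been seen. A cell was red-cell-rich from 1000 marker transcripts per 10000, smooth muscle-like from 30 with at least 3 of 8 markers, pericyte-like from 15 with at least 3 of 8, Cajal-like from 15 with at least 2 of 4, and otherwise a fibroblast with at least 5 of 10. A score was the mean over a list of log2(1 + transcripts per 10000), each gene standardised within a tumour's fibroblasts. Counts were summed per tumour and group with at least 10 cells, rounded, and tested with edgeR 4.0.16 (limma 3.58.1, R 4.3.3): TMM scaling, filterByExpr, the quasi-likelihood test with the tumour as a block and Benjamini-Hochberg adjustment at 0.05. Genes used to set groups were left out, and Egr3 did not pass the filter on low counts. DESeq2 1.42.0 served as an alternative. The test was also run on simulated counts with 200 changed genes. That simulation held no differences between tumours and did not repeat the ranking of cells by score, so it does not bear on either. The tumour is the same in both groups of a comparison, so the block pairs cells of the same plate. Levels, correlations and figures used python 3.11.15, numpy 2.4.6, pandas 2.3.3 and scipy 1.17.1.

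All members were named; of each further list up to 4 called genes, by smallest p; and for each arm the 5 outside genes whose lowest correlation with the arm over tumours 2 to 4 was highest, among genes seen in at least 25% of kept cells of each (a gene this rule chose is not reported here). Alternatives were other cell filters, denominators, scaling, tools and splits, whole UMIs, and each tumour left out.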

Additional observations from a re-analysis of the deposited data

Results flagged for a closer look

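In 58 sets of 4 tumour values, 2 held a tumour far from the others by Dixon's criterion. That is no more than the about 1 in 20 that chance flags, and the sets overlap, since they come from the same cells. Nr4a1 stood at 0.577 per 10000 in the fibroblasts of tumour 1 and at 8.403 to 9.76 in tumours 2 to 4. Zfp36 stood at 2.85 in tumour 1 and at 14.2 to 15.8 in the others.

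Wells over the mitochondrial limit, which no comparison used, also held transcripts of the set. In tumours 1, 2, 3 and 4 they had 841, 47, 47 and 125 immediate-early transcripts, and 111 and 15 heat shock transcripts in tumours 1 and 4, above the 3 that a count of 0 allows. Per 10000 transcripts that were not mitochondrial, the immediate-early arm was 112, 161, 209 and 129 in these 87, 5, 7 and 14 wells and 70.4, 179, 241 and 225 in the kept wells. In tumour 1 alone both arms were higher in the wells over the limit than in the kept wells (heat shock arm 14.8 against 9.85).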

How the results depend on the processing

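The mean arm levels moved by less than the SD between tumours in every alternative run, but that limit is wide. For the immediate-early arm the SD was 74.2 and includes the low tumour 1 (61.6). A rise of the mean from 167.04 to 208.53, without mitochondrial genes and Rn45s in the total, stayed within it. Leaving out 1 tumour cannot move the mean by as much as the SD. Staying within this limit therefore does not show that the levels are robust. The mean correlation between the arms, 0.310, was 0.182 with each cell thinned to 2000 transcripts, 0.389 with log values averaged over members and 0.201 in fibroblasts alone. In alternatives chosen after seeing the data it was 0.226 without red-cell-rich wells, 0.135 in thinned fibroblasts and 0.162 in fibroblasts without Dnajb1. Of 19 members higher in inflammatory-high cells, counts ran from 11 to 20 with 1 tumour left out, and 9 were called with a split at the middle. The 1 lower member became 0 to 1 with 1 tumour left out and 2 at no more than 10% mitochondrial transcripts, an alternative added later. For progenitor-high cells the 18 higher members became 8 to 19 with 1 tumour left out and 7 with a split at the middle; the 1 lower became 0 to 2, and 0 by DESeq2. DESeq2 called 2 of the 11 members lower in smooth muscle-like cells.

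Without the replicate block that pairs groups of the same tumour, 16 members were higher in inflammatory-high cells and 0 lower, 11 were higher in progenitor-high cells and 0 lower, and 14 were lower in smooth muscle-like cells. For single members, 213 of 240 calls held across the alternatives of the first comparison, 171 of 209 of the second and 48 of 60 of the third, and no called value changed direction. Atf3, Dnajb1, Klf4, Zfp36 and Zfp36l1 were called in every alternative run of both fibroblast comparisons. For smooth muscle-like cells, leaving out a tumour and the stricter cell filters were not run, since too few cells or degrees of freedom were left; no alternative was run for pericyte-like cells. The cause of the changed counts was not tested. Depth limits Egr3 in each comparison, and Egr2, Myc, Maff, Dnajb1 and Gadd45b in smooth muscle-like cells.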
